A study of Mus musculus with 6 samples.

Results

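Genes of B cells and plasma cells were followed through RNA sequencing libraries of the mouse duodenum. The group holds 32 genes, chosen by symbol among the 23235 symbols (23699 rows) of the per-library gene tables. It comprises 24 genes of B cell lineage and the lymphoid follicle, 6 genes of antibody-secreting plasma cells and 2 cytokine ligands that keep these cells alive. All 32 had 1 row each, and all 32 passed the filter of a mean of at least 0.1 FPKM (fragments scaled to transcript length and to mapped fragments) over the 6 libraries. Pax5 and Cr2 passed through control 3 only.

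The mutants were 3 mice, 6 weeks old, of genotype Nkx2.2flox/TN; Villin-Cre/+; Rosa26Tomato/+, called TNint. The controls were 3 mice of the same age with Nkx2.2flox/+ and no Cre, of which controls 1 and 2 carried Rosa26Tomato/+ and control 3 did not. All were on a mixed background, and each library is 1 animal. TN stands, as background, for an Nkx2.2 allele with an altered tinman domain, and Villin-Cre acts in intestinal epithelium, so lymphoid cells are not the cells in which the floxed allele is recombined, whereas they carry the TN allele of the germ line. Cre and the TN allele differ together between the groups and cannot be told apart. Each piece was 2 cm of whole intestinal wall next to the stomach, so fewer cells of a type and less RNA per cell cannot be told apart.

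B cells mature in follicles, where they carry an antigen receptor made of immunoglobulin and the signalling pair Cd79a and Cd79b, coreceptors such as Cr2, and lineage factors such as Pax5. Activated B cells of the gut switch to IgA and become plasma cells under Prdm1, Irf4 and Xbp1, lose much of the B cell program, and settle in the lamina propria along the whole villus. There they secrete IgA dimers joined by the J chain, which epithelial cells carry into the lumen through the polymeric immunoglobulin receptor Pigr. Follicles, in contrast, lie in scattered patches of the wall.

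The libraries differed in ways that bear on these genes. Depth, read from the authors' FPKM intervals, was 16.88, 25.91 and 21.97 M implied reads (M for mega) in mutants 1, 2 and 3, and 14.21, 21.25 and 19.91 M in controls 1, 2 and 3. Mutant 3 and control 3 were female by Xist, at 23.2 and 34.0 FPKM, and the other 4 libraries were male with Xist below 0.07 FPKM in each. The 7 pancreatic acinar markers summed to 1398, 1432 and 6172 FPKM in mutants 1, 2 and 3 and to 9.19, 211 and 5243 FPKM in controls 1, 2 and 3, so the female libraries were also those with most acinar RNA. Vil1, Epcam, Fabp1, Cdx2, Pdx1 and Gata4, markers of duodenal epithelium, were present in all 6. Nkx2-2, the targeted gene, was at 0.748, 0.744 and 0.666 FPKM in mutants and at 1.0, 1.03 and 1.27 FPKM in controls. Its adjusted p in limma was 0.79, and its reads were not split by exon here.

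The leading plasma cell transcript was abundant, with its highest library 1.5 times its lowest, while markers of mature follicle B cells were sparse and differed manyfold. Igj, the J chain gene (mm9 chromosome 5, 88948834 to 88956922), was the most abundant member at 1159, 1156 and 1553 FPKM in mutants and 1367, 1401 and 1033 FPKM in controls. Ms4a1, the B cell surface protein CD20 (mm9 chromosome 19, 11325093 to 11340641, overlapping the row 4930526L06Rik), was at 0.194, 0.126 and 0.967 FPKM in mutants and 0.115, 0.205 and 3.69 FPKM in controls. Control 3 was thus the lowest of the 6 libraries for Igj and by far the highest for Ms4a1.

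**Figure D1:**
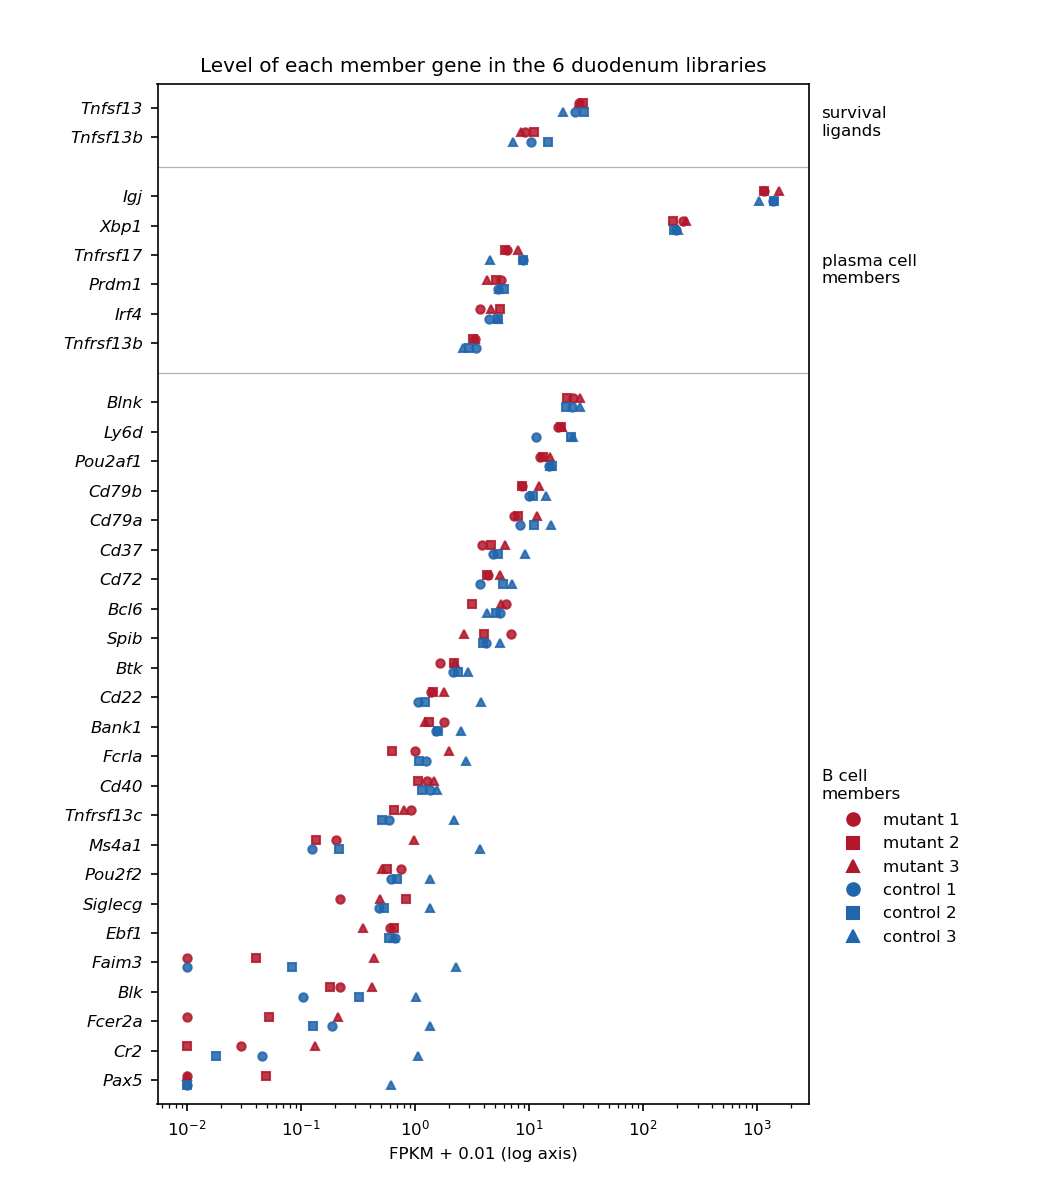
FPKM of each of the 32 genes (log axis, 0.01 added so that values of 0 can be drawn), with mutants in red above controls in blue and a symbol for each replicate number. Control 3 stands to the right of the other libraries for Ms4a1, Cr2, Fcer2a, Faim3 and Pax5, and to the left of them for Igj, Tnfrsf17 and the ligands.

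Among the antigen receptor genes, Cd79a (mm9 chromosome 7, 25682530 to 25687216) had 7.32, 8.02 and 11.7 FPKM in mutants and 8.26, 11.0 and 15.6 FPKM in controls. Cd79b (mm9 chromosome 11, 106172655 to 106175843) had 8.64, 8.59 and 12.2 FPKM in mutants and 9.98, 10.8 and 14.0 FPKM in controls. In each group replicate 3 was highest for both genes, and the groups overlapped. Their levels were well above that of Ms4a1 in every library, and control 3 exceeded the mean of the other controls 1.62 times for Cd79a, 1.35 times for Cd79b and 23.0 times for Ms4a1.

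The receptors of mature follicle B cells were close to 0 outside replicate 3. Cr2, complement receptor 2 of B cells and follicular dendritic cells (mm9 chromosome 1, 196963005 to 197002909), had 0.0199, 0 and 0.122 FPKM in mutants and 0.0355, 0.00789 and 1.05 FPKM in controls. These values stand for about 2, 0 and 16 reads in mutants and 3, 1 and 125 reads in controls, and the authors' interval for control 3 was 0.863 to 1.24 FPKM. Fcer2a, the low-affinity IgE receptor CD23 (mm9 chromosome 8, 3681737 to 3694174), had 0, 0.0424 and 0.201 FPKM in mutants and 0.175, 0.117 and 1.33 FPKM in controls. Faim3, the IgM receptor (mm9 chromosome 1, 132762354 to 132777367), had 0, 0.0303 and 0.429 FPKM in mutants and 0, 0.0739 and 2.28 FPKM in controls. For all 3 genes control 3 was highest and mutant 3 second.

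Pax5, the factor that commits cells to the B lineage (mm9 chromosome 4, 44544378 to 44723312), was listed at 0 in mutants 1 and 3 and in controls 1 and 2. It had 0.0388 FPKM in mutant 2, about 1 read, and 0.606 FPKM in control 3, about 12 reads. Tnfrsf13c, the receptor for the survival cytokine BAFF, had 0.915, 0.64 and 0.783 FPKM in mutants and 0.586, 0.502 and 2.2 FPKM in controls. Blk, a B lymphoid Src family kinase, had 0.211, 0.171 and 0.405 FPKM in mutants and 0.094, 0.313 and 1.0 FPKM in controls. Both were highest in control 3, while controls 1 and 2 lay below all mutants for Tnfrsf13c and 1 below and 1 within their range for Blk.

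Cd22, an inhibitory coreceptor that binds sialic acid (mm9 chromosome 7, 31650423 to 31665361), had 1.38, 1.43 and 1.8 FPKM in mutants and 1.04, 1.22 and 3.75 FPKM in controls. Controls 1 and 2 were below all mutants and control 3 was above them. Other surface members also had their highest value in control 3, by less. Cd37, a tetraspanin, had 3.88, 4.66 and 6.18 FPKM in mutants and 4.82, 5.36 and 9.18 FPKM in controls. Fcrla, an Fc receptor-like protein of B cells, had 0.991, 0.617 and 1.99 FPKM in mutants and 1.23, 1.08 and 2.76 FPKM in controls. Siglecg, an inhibitory sialic acid receptor, ranged from 0.21 to 0.818 FPKM in mutants and from 0.468 to 1.33 FPKM in controls. For all 3 genes the groups overlapped. Cd72, whose locus overlaps the row of Tesk1, had 4.35, 4.22 and 5.5 FPKM in mutants and 3.69, 5.93 and 7.04 FPKM in controls. Cd40, the receptor for T cell help, stood out least in control 3 among these, with 1.26, 1.06 and 1.46 FPKM in mutants and 1.33, 1.13 and 1.55 FPKM in controls.

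Receptor signalling and transcription factor members were mixed. Btk, a kinase that B cell maturation needs, had 1.64, 2.17 and 2.25 FPKM in mutants and 2.14, 2.36 and 2.93 FPKM in controls. Bank1, a B cell scaffold protein, had 1.77, 1.31 and 1.22 FPKM in mutants and 1.52, 1.59 and 2.51 FPKM in controls, so control 3 was again highest while mutant 3 was the lowest library. Pou2f2, the octamer-binding factor Oct-2, had 0.735, 0.562 and 0.501 FPKM in mutants and 0.608, 0.688 and 1.33 FPKM in controls. Pou2af1, its coactivator, which plasma cells also use, was even at 12.5, 13.1 and 15.1 FPKM in mutants and 14.9, 15.9 and 15.2 FPKM in controls.

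The remaining 5 B lineage members also stood out little or not at all in control 3. Blnk, the adaptor that links the B cell receptor to its effectors (mm9 chromosome 19, 41003417 to 41069025), was the most abundant B lineage member at 24.1, 21.3 and 27.8 FPKM in mutants and 23.7, 21.0 and 28.0 FPKM in controls. Ly6d, an antigen of early B cells and of squamous epithelium, had 17.9, 19.0 and 19.4 FPKM in mutants and 11.5, 23.5 and 24.3 FPKM in controls. The groups overlapped for Blnk throughout, and for Ly6d the mutants lay within the range of the controls. Spib, an Ets factor of B cells that M cells also use, was highest in mutant 1, with 6.88, 4.05 and 2.67 FPKM in mutants and 4.16, 3.97 and 5.54 FPKM in controls. Bcl6, the germinal centre repressor, was also highest in mutant 1, with 6.29, 3.14 and 5.63 FPKM in mutants and 5.56, 5.15 and 4.28 FPKM in controls. Ebf1, an early B cell factor that stromal cells and adipocytes also express, had 0.587, 0.648 and 0.338 FPKM in mutants and 0.662, 0.581 and 0.644 FPKM in controls. Among these 5 genes the ratio of control 3 to the mean of the other controls ran from 0.799 for Bcl6 to 1.39 for Ly6d. Cd79b, Btk, Cd40 and Pou2af1 lay in the same range, at 1.35, 1.3, 1.26 and 0.986.

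Promoters are shown for genes far higher in control 3, for genes that were not, and for plasma cell genes. The first and second kinds grade into each other. Each is the RefSeq window on GRCm38.p6 from 250 bases before to 50 bases after a gene's start, 5′ to 3′ on the gene's strand. Cd22 and Cr2 are of the first kind, Blnk of the second and Igj of the third. Capitals mark matches to the octamer of Oct factors, ATGCAAAT, or to the 8 bases CCCNNGGG of the early B cell factor motif, both searched on both strands.
Cd22, chr7:30878979-30879278, minus strand: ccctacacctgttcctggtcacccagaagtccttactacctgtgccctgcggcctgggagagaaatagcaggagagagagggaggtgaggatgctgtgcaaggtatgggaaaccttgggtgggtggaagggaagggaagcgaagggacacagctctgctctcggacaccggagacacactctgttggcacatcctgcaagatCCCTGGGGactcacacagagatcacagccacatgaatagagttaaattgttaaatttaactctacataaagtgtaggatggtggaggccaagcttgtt
Cr2, chr1:195176670-195176969, minus strand: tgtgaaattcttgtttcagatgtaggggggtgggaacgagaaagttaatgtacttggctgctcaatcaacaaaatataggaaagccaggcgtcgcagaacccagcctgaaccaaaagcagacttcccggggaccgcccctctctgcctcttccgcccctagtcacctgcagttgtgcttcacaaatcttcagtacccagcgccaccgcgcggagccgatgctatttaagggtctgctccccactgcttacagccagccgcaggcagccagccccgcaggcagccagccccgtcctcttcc
Blnk, chr19:40994172-40994471, minus strand: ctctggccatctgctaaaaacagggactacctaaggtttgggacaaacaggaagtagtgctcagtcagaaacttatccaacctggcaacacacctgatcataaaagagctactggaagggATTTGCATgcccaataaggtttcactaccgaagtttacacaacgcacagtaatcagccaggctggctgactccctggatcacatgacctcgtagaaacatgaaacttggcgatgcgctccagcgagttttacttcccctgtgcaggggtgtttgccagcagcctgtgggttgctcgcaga
Igj (Jchain in RefSeq), chr5:88527848-88528147, minus strand: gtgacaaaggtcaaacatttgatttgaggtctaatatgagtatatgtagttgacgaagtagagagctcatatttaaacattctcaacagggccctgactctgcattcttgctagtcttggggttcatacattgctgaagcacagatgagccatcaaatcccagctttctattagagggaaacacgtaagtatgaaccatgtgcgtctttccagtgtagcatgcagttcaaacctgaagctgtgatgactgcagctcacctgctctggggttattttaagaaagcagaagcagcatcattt
Windows were held for 27 of the 32 genes, 33 windows in all. The octamer was in 1 of the 33 (3.03%), that of Blnk, 130 bases before the start, and in 1.74% of all 32851 windows. CCCNNGGG was in 4 of the 33 (12.1%), in Bank1, Cd22, Spib and Tnfsf13, and in 13.7% of all windows. A match is a description of the letters only.

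Across the 24 B lineage members, control 3 was the highest of the 6 libraries for 20, against 14.7% of all 15864 tested rows. For 8 of the 24 it was at least 2 times the next library, against 0.397% of tested rows. These 8 were Cd22, Ms4a1, Tnfrsf13c, Cr2, Fcer2a, Blk, Pax5 and Faim3. For 12 of the 24 control 3 was first and mutant 3 second, against 4.05% of tested rows. Cr2 and Pax5 passed the filter through their value in control 3, so they had to be high there. With the filter set on the other 5 libraries, an alternative chosen after seeing the data, 22 of the members were left. Of these, control 3 was highest for 18 (14.4% of the 15782 rows left), at least 2 times the next library for 6 (0.272%), and first with mutant 3 second for 11 (3.99%). Genes of 1 lineage are not independent, so these counts describe 1 library and carry no test.

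Many other B lineage and follicle genes outside the 32 were also highest in that library, and those named next were picked after their values were seen. Cxcr5, the receptor that draws B cells into follicles, had 0.0745, 0.0484 and 0.21 FPKM in mutants and 0.118, 0.118 and 1.24 FPKM in controls. Cxcl13, the follicle chemokine that Cxcr5 binds, had 3.07, 2.65 and 4.09 FPKM in mutants and 2.61, 2.44 and 12.8 FPKM in controls. Mutant 3 was second for both. Vpreb3, Cd83 and Mfge8 were highest in control 3 as well, at 4.5, 4.72 and 54.2 FPKM, but by less. Their values there were 1.24, 1.36 and 1.25 times the next library, against 5.9 times for Cxcr5 and 3.12 times for Cxcl13. In the list of other B lineage genes 7 of 11 tested rows were highest in control 3, against 14.7% of all tested rows. Cd38, Ikzf3, Cd27 and Cd180 were highest in other libraries. Among follicle organisers 8 of 11 rows were highest in control 3, with Ccl19 and Ccl21a counted as 2 near-identical rows each whose split is uncertain. Ltbr, Ccl20 and Lta were highest elsewhere, and Ltbr was lowest in control 3.

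Markers of other lymphoid and myeloid cells did not share that order as lists. Of 10 T cell markers 2 were highest in control 3, against 14.7% of tested rows. Among them was Ccr7, a receptor of cells that home to lymphoid tissue, with 1.86 FPKM. Cd3e, a subunit of the T cell receptor complex, had 9.88, 9.83 and 12.9 FPKM in mutants and 8.22, 10.2 and 8.27 FPKM in controls. The T cell list summed to between 62.7 and 82.4 FPKM in mutants and between 58.9 and 63.4 FPKM in controls. The macrophage and dendritic cell list summed to between 175 and 192 FPKM in mutants and between 160.1 and 187 FPKM in controls. None of its 6 genes was highest in control 3, against 14.7% of tested rows. No marker of these 2 lists was at 0 in any library. Control 3 was also the one female control, the one with most acinar RNA and the one without Rosa26Tomato, and these cannot be told apart in it.

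**Figure D2:**
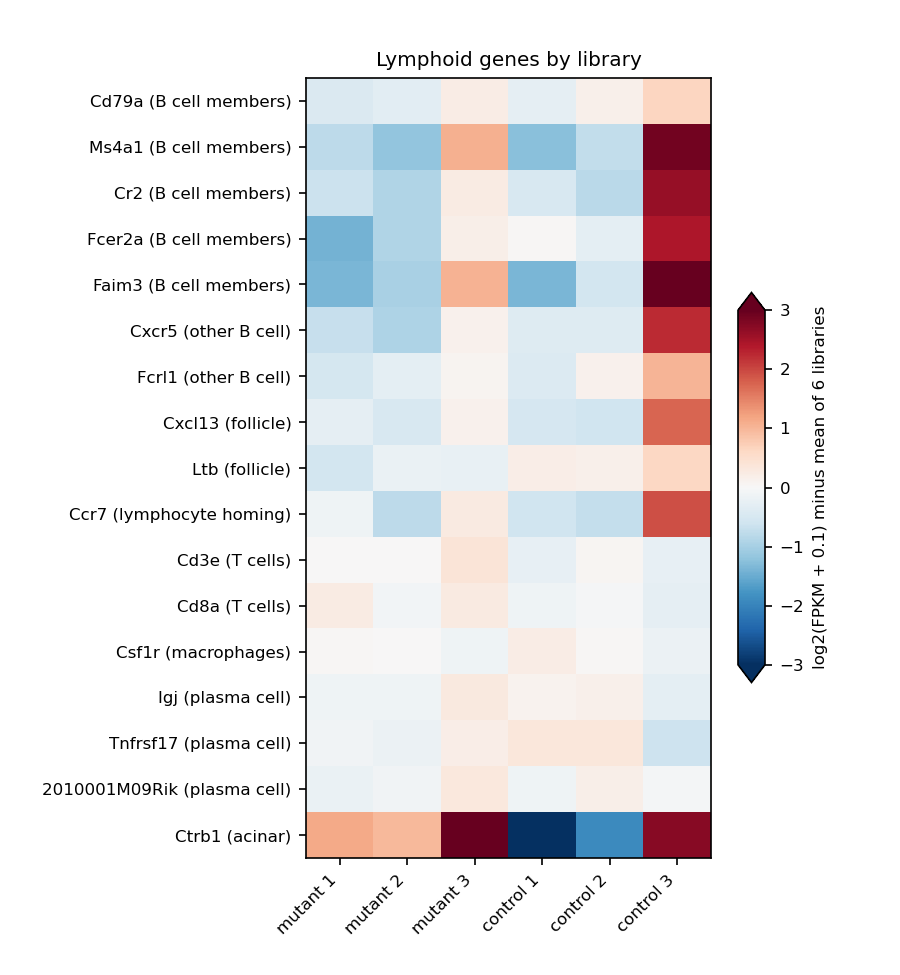
Log2(FPKM + 0.1) of each gene minus its mean over the 6 libraries (colour, blue low and red high, drawn to ±3), with libraries in columns. Control 3 is red for Ms4a1, Cr2, Fcer2a, Faim3, Cxcr5, Cxcl13 and Ccr7, pale for the T cell and macrophage genes, and slightly blue for Igj and Tnfrsf17, while Ctrb1 is red in mutant 3 as well.

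Plasma cell members did not share the order of the B lineage members. Tnfrsf17, the plasma cell survival receptor BCMA (mm9 chromosome 16, 11313902 to 11320161), had 6.45, 6.18 and 7.99 FPKM in mutants and 8.84, 8.89 and 4.52 FPKM in controls. Control 3 was lowest, at 0.51 times the mean of the other controls, and mutant 3 was the highest mutant. Igj had the same arrangement, with control 3 at 0.746 times the mean of the other controls. Tnfrsf13b, the receptor TACI of activated B cells and plasma cells, was even at 3.32, 3.23 and 3.31 FPKM in mutants and 3.42, 2.98 and 2.62 FPKM in controls. None of the 6 plasma cell members was highest in control 3, against 14.7% of tested rows. With 6 genes a count of 0 lies near that share. Lowest in control 3 were 3 of the 6, against 21.8% of tested rows.

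The groups overlapped for the factors of plasma cell fate. The highest library was 1.41 times the lowest for Prdm1, 1.5 times for Irf4 and 1.3 times for Xbp1. Prdm1, the repressor Blimp-1, had 5.67, 5.08 and 4.26 FPKM in mutants and 5.36, 6.0 and 5.43 FPKM in controls. Irf4 had 3.68, 5.54 and 4.65 FPKM in mutants and 4.41, 5.3 and 5.37 FPKM in controls. Xbp1, the factor of secretory capacity, was at 223, 184 and 238 FPKM in mutants and 193, 187 and 203 FPKM in controls. Goblet, Paneth and acinar cells also use Xbp1, and its 3 highest libraries were mutants 3 and 1 and control 3. Further plasma cell genes overlapped between the groups as well. 2010001M09Rik had 43.3, 46.5 and 62.3 FPKM in mutants and 45.5, 55.9 and 47.5 FPKM in controls. Derl3, a factor of protein disposal from the endoplasmic reticulum, had 10.4, 11.2 and 16.0 FPKM in mutants and 12.0, 13.7 and 10.5 FPKM in controls. Control 3 was below controls 1 and 2 for Derl3 and above both for Creld2, with 64.0, 54.8 and 83.6 FPKM in mutants and 52.5, 52.1 and 62.0 FPKM in controls. Fkbp11 and Edem1 were also higher in control 3 than in the other controls, at 1.75 and 1.08 times their mean. Of the 8 tested rows in that list none was highest in control 3, against 14.7% of all tested rows.

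The survival ligands come mainly from myeloid and epithelial cells. Tnfsf13b, BAFF, had 9.27, 11.1 and 8.56 FPKM in mutants and 10.3, 14.7 and 7.18 FPKM in controls. Tnfsf13, APRIL, whose locus overlaps the row BC096441, had 27.3, 29.4 and 27.3 FPKM in mutants and 25.2, 30.2 and 20.0 FPKM in controls. Both were lowest in control 3 and highest in control 2. Pigr, which carries IgA across the epithelium, had 1858, 2107 and 1967 FPKM in mutants and 2422, 2464 and 1992 FPKM in controls (log2 fold change −0.21, limma adjusted p = 0.8). Ccl28, a chemokine for IgA plasma cells, was listed at 0 in all 6 libraries. A search for symbols with Igh, Igk or Igl before a letter or hyphen found no immunoglobulin constant or variable gene. These genes could therefore not be followed here. Igll1, a surrogate light chain gene of precursor B cells, was listed at 0 in each library.

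The spread within a group was set beside the error of counting reads, which was taken from the implied reads. The coefficient of variation (CV, SD over mean) of the 24 B lineage members had a median of 25.1% in mutants and 36.6% in controls (n = 3 libraries each), where counting alone would give 13.7% and 12.0%. For the 6 plasma cell members the median CV was 14.2% in mutants and 12.0% in controls, where counting alone would give 4.52% and 4.66%. For all tested rows it was 10.9% and 11.1%, with counting values of 5.26% and 5.59%. The CV was above 2 times the counting value for 12 of the 24 B lineage members in mutants and for 20 of 24 in controls, against 43.6% and 42.4% of tested rows. Among the plasma cell members this held for 4 of 6 in each group. Without control 3 the median CV of the B lineage members in controls was 9.23%, from 2 libraries. The largest CVs in controls were those of Pax5 (173%), Faim3 (165%), Cr2 (163%) and Ms4a1 (152%). Of these, Pax5 and Cr2 passed the filter through control 3 only, so the filter favoured a wide spread in controls. Both are among the 20. Igj, with 36452 reads or more in each library, had a CV of 17.7% in mutants and 16.1% in controls against counting values of 0.437% and 0.478%.

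**Figure D3:**
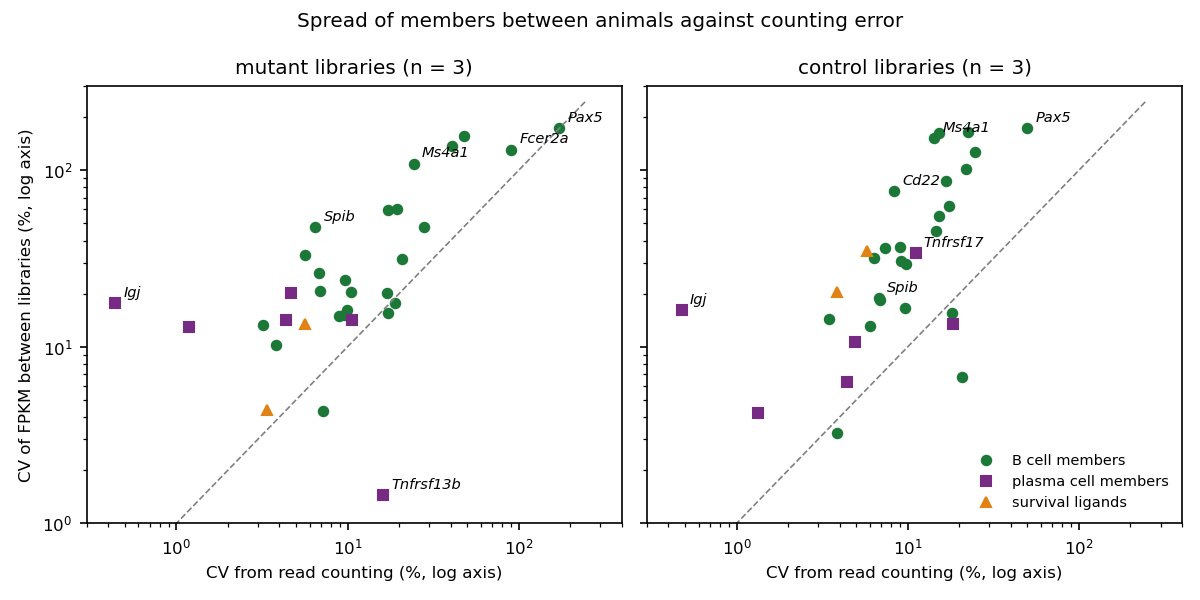
CV of FPKM between the 3 libraries of a group (vertical, %, log axis) against the CV that counting the implied reads would give (horizontal, %, log axis), 1 point per gene, mutants left and controls right; the dashed line marks equality. The B lineage genes reach 173% in controls, most of them far above the line, and Igj lies left of all others with 17.7% in mutants and 16.1% in controls.

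The comparison of mutants with controls found no member that changed. In limma on log2(FPKM + 0.1), with Benjamini-Hochberg adjustment over all 15864 tested rows, 0 of 32 members passed an adjusted p of 0.05, and 0.0% of all tested rows did. The smallest adjusted p among members was 0.79, and at an unadjusted p under 0.05 there were 0 of 32 members against 5.81% of tested rows. With the replicate number as a block 5 of 32 members had an unadjusted p under 0.05, all lower in mutants (Cd79a, Cd79b, Cd37, Fcer2a and Fcrla), against 7.89% of tested rows in that fit in either direction and 5.09% lower. The smallest limma adjusted p of a member in that fit was 0.61. In the authors' deposited table none of the 32 passed either, with a smallest unadjusted p of 0.24 and a smallest adjusted p of 1.0. For no member did all mutants lie above all controls or below them, where 3.13% and 9.92% of tested rows did. A missed threshold does not show that the groups are alike, and the SE of a log2 fold change reached 1.2 for Faim3.

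Fold changes of the B lineage members leaned below 0. Of 24, 22 had a negative log2 fold change (mutant minus control), against 61.3% of tested rows, with a median of −0.31 against −0.05 for all tested rows. Cr2 (−0.89) and Pax5 (−0.78) are among the 22. Both passed the filter through control 3 only, so they had to be high in a control. Fcer2a averaged 0.081 ± 0.106 FPKM in mutants and 0.54 ± 0.684 FPKM in controls (SD, n = 3 each), a log2 fold change of −1.44 (SE 0.78, limma adjusted p = 0.79). Ms4a1 averaged 0.429 ± 0.467 FPKM in mutants and 1.34 ± 2.04 FPKM in controls (log2 fold change −0.6, SE 1.1, limma adjusted p = 0.93). Cd79a averaged 9.02 ± 2.37 FPKM in mutants and 11.6 ± 3.7 FPKM in controls (log2 fold change −0.34, SE 0.26, limma adjusted p = 0.81). The size of this lean depended in large part on control 3. Without control 3 the median of the 24 was −0.04, 13 of 24 were negative, and Ms4a1, Faim3, Tnfrsf13c and Cd22 turned to 0.69, 0.53, 0.44 and 0.41. With any 1 library left out, Cd79a, Cd79b, Cd37, Btk and Fcer2a stayed negative, at −0.11, −0.1, −0.08, −0.15 and −0.59 or lower. Bank1, Cd72, Ebf1, Fcrla, Pou2af1, Pou2f2 and Siglecg also stayed negative, and the other B lineage members did not. The share of all rows that stayed negative in every such fit is not given here. In the male libraries only, which leaves out mutant 3 and control 3, the median was −0.1 with 16 of 24 negative. The shares of all rows below 0 without control 3 and in the male libraries are not given here. With the acinar level as a covariate the median was −0.77, and 13 of 32 members had an unadjusted p under 0.05, all lower in mutants, against 5.43% of tested rows in that fit in either direction and 2.99% lower. The smallest limma adjusted p of a member there was 0.85.

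Plasma cell members had a median log2 fold change of −0.01, with 3 of 6 negative. Igj averaged 1289 ± 228 FPKM in mutants and 1267 ± 204 FPKM in controls (SD, n = 3 each), a log2 fold change of 0.02 (SE 0.18, limma adjusted p = 0.99). Tnfrsf17 averaged 6.88 ± 0.978 FPKM in mutants and 7.42 ± 2.51 FPKM in controls (log2 fold change −0.05, SE 0.27, limma adjusted p = 0.98). Xbp1 had the highest fold change of the 6 at 0.14 (SE 0.11, limma adjusted p = 0.81). The ligands had log2 fold changes of −0.1 for Tnfsf13b and 0.17 for Tnfsf13.

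Taken by replicate number, the 3 pairs of libraries differed from each other. For the B lineage members the median of mutant minus control on the log2 scale was 0 in pair 1, with 11 of 24 negative, −0.25 in pair 2, with 17 of 24 negative, and −0.87 in pair 3, with 23 of 24 negative. Over all tested rows these medians were −0.08, −0.03 and −0.03, and 9724, 9096 and 8637 of 15864 rows were negative. Cr2 and Pax5, which passed the filter through control 3 only, are among the 23 negative in pair 3. For the plasma cell members the medians were −0.14, −0.13 and 0.28. Igj had log2 differences of −0.24, −0.28 and 0.59 in pairs 1, 2 and 3, and Tnfrsf17 had −0.45, −0.52 and 0.81. Ms4a1 had 0.45, −0.43 and −1.83, opposite in sign to both in pairs 1 and 3.

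**Figure D4:**
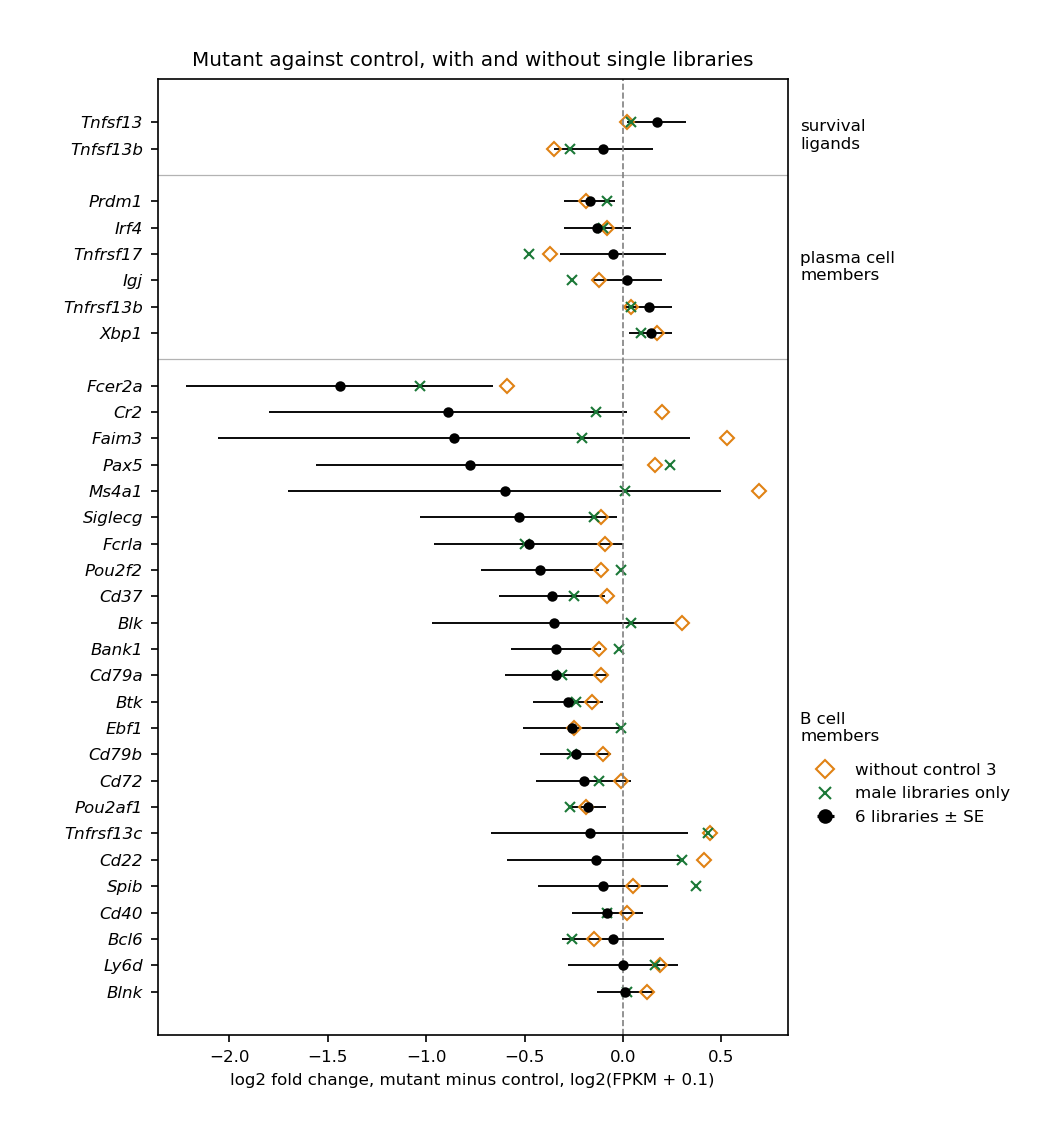
Log2 fold change of each gene, mutant minus control, on log2(FPKM + 0.1), with all 6 libraries (black, bars are SE), without control 3 (orange diamonds) and in the 4 male libraries (green crosses). Without control 3 Ms4a1, Faim3, Tnfrsf13c, Cd22, Blk, Cr2 and Pax5 lie above 0, and Fcer2a stays below it at −0.59.

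In the 11 further lists limma called 0 genes at an adjusted p of 0.05, with 0.79 as the smallest value. The median log2 fold change was −0.43 for other B lineage genes, 0.02 for other plasma cell genes, −0.13 for germinal centre genes, −0.19 for follicle organisers, 0.02 for M cells, −0.21 for IgA transport, 0.2 for T cells and −0.05 for macrophages and dendritic cells. For acinar cells it was 3.41, for secretory epithelium −0.08 and for duodenal epithelium −0.01. Among those at an unadjusted p under 0.05 were Ltb (−0.65) and Ccr6 (−0.64), lower in mutants, and Cd27 (0.53), higher.

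Transcript estimates were deposited as well. Of the 32, 7 had more than 1 RefSeq transcript, 27 in all, of which 9 averaged at least 0.5 FPKM. Of the 2 transcripts of Cd22, NM_001043317 had 1.38, 1.43 and 1.1 FPKM in mutants and 0.575, 1.22 and 3.75 FPKM in controls, which is below the level of the gene in mutant 3 and control 1. The 2 transcripts of Tnfsf13 were similar in level, NM_001159505 at 13.5, 15.4 and 16.5 FPKM in mutants and 12.0, 16.1 and 9.01 FPKM in controls, and NM_023517 at 13.9, 14.0 and 10.7 FPKM in mutants and 13.2, 14.1 and 11.0 FPKM in controls.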

How the data were processed

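RNA of whole duodenum was sequenced from 3 mutant and 3 control mice. The deposited gene and transcript tables give FPKM with a confidence interval for build mm9, per the file headers. CASAVA 1.8.2, TopHat, Cufflinks and DESeq are named in the submitters' processing notes; other versions, read counter and strandedness: not given in the sources used here. The authors' deposited comparison table holds group means as a size-factor scaled signal, their ratio, its log2 value and p-values, per the file headers. The transcript tables' coverage signal, deposited by the authors, was not used.

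From these, log2(FPKM + 0.1) was computed for the 15864 rows with a mean of at least 0.1 FPKM and tested with limma 3.58.1 in R 4.3.3 (empirical Bayes with trend, no rescaling, Benjamini-Hochberg over all rows, threshold 0.05). The test was checked on simulated data. Implied reads are the square of FPKM over its SE, with the upper bound taken as 2 SE away, and cover counting error only. The p-values measure the spread between these mice, and an exact test of 3 against 3 cannot go below 0.1. Same-numbered mutants and controls deviated together, with correlations of 0.106, 0.207 and 0.389, and the numbers were taken to pair libraries. Mutant 2 with control 1 gave 0.127, and no label names a litter or day. Mutant 3 and control 3, at 0.389, were also both female and rich in acinar RNA. Sex, acinar RNA and shared handling cannot be told apart there. Promoter windows were matched by symbol or synonym.

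Some genes of the further lists are not reported here. The members and lists were chosen with earlier results of these data known. All 32 members are named. From each further list the up to 4 most abundant genes were eligible by rule, and other names were picked after their values were seen. Alternatives were other pseudocounts, filters and scalings, no trend, a replicate block, an acinar covariate and each library left out; male libraries only, a sex covariate and a filter that ignores control 3 were chosen after seeing the data.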

Additional observations from a re-analysis of the deposited data

How the results depend on the processing

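No member passed an adjusted p of 0.05 in limma under any of 17 alternatives. Over all genes, 2 were called with the replicate block, 1 with a sex covariate (chosen after seeing the data) and 0 to 3 with a library left out. The block changed no call of a member. The median log2 fold change of the B lineage members was −0.77 with the acinar covariate and −0.47 to −0.04 with a library left out, and that of the plasma cell members −0.1 to 0.11. The median CV of B lineage members in controls was 24.1% at a mean of at least 1 FPKM. With a library left out the median CV of B lineage members was 19.2% to 26.8% in mutants and 9.23% to 47.4% in controls, and that of plasma cell members 5.41% to 15.8% in mutants and 5.2% to 16.3% in controls. The lowest were without control 3 (9.23% and 5.2%) and without mutant 3 (5.41%).

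Among the values of single members, 491 kept their direction and 43 reversed. Ly6d was 0 with a pseudocount of 1 and Bcl6 was 0 with median-of-ratios scaling. Quantile normalization gave Cd40 0.02, Igj −0.11, Tnfrsf17 0.01 and Bcl6 0.04. The acinar covariate gave Tnfrsf17 0.3, Tnfsf13b 0.13, Blnk −0.11, Bcl6 0.08 and Ly6d −0.43. Male libraries only, chosen after seeing the data, gave Cd22 0.3, Ms4a1 0.01, Igj −0.26, Tnfrsf13c 0.43, Blk 0.04, Pax5 0.24 and Spib 0.37. With a library left out the ranges that crossed 0 were those of Irf4 (−0.27 to 0.02), Cd40 (−0.19 to 0.03), Tnfrsf17 (−0.37 to 0.11), Bcl6 (−0.23 to 0.26), Ly6d (−0.35 to 0.19), Igj (−0.12 to 0.1), Blnk (−0.08 to 0.12), Spib (−0.44 to 0.22), Tnfsf13b (−0.35 to 0.16), Cd22 (−0.47 to 0.41), Ms4a1 (−1.38 to 0.69), Tnfrsf13c (−0.53 to 0.44), Cr2 (−1.51 to 0.2), Blk (−0.95 to 0.3), Pax5 (−1.25 to 0.16) and Faim3 (−1.76 to 0.53). The cause was not tested. Median-of-ratios scaling moved the median of all rows to 0, against −0.05. No paired analysis was possible for the CVs because they come from no test. Depth limits Pax5, Cr2, Faim3, Fcer2a, Ms4a1 and Blk most, each with 3 reads or fewer in at least 1 library.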

Other observations

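Some genes outside the 32 members had a library profile like the mean profile of Cd79a, Cd79b, Ms4a1, Cd22 and Cr2, of which Cr2 passed the filter through control 3 only. Likeness was the root mean square difference of log2(FPKM + 0.1), each centred on its mean over the 6 libraries, among 13659 rows with a mean of at least 0.5 FPKM. The nearest was the follicle chemokine Cxcl13 (0.19), followed by the inducible heat shock gene Hspa1a (0.23), Ccr7 (0.28), Banp (0.29), Cldn10 (0.31), the B lineage gene Fcrl1 and Vtn and Gdpd3 (0.34 each), and Prss30 and Hspa8 (0.35 each). Hspa1a had 1.65, 1.61 and 5.02 FPKM in mutants and 1.96, 1.92 and 8.26 FPKM in controls. Hspa8, a heat shock cognate present in all cells, had 575, 473 and 953 FPKM in mutants and 431, 498 and 1091 FPKM in controls. In both, mutant 3 and control 3 were the high libraries. The likeness is over 6 libraries and carries no test.

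Rgs13, a regulator of G protein signalling known from germinal centre B cells and tuft cells, had 14.7, 5.33 and 3.17 FPKM in mutants and 7.55, 6.43 and 6.9 FPKM in controls. Like Spib and Bcl6 it was highest in mutant 1, as were 14.2% of all tested rows. The lowest library was mutant 3 for Rgs13 and Spib and mutant 2 for Bcl6. Gp2, known from M cells and from pancreatic acinar granules, had 17.8, 14.3 and 66.2 FPKM in mutants and 1.48, 3.72 and 79.8 FPKM in controls. Its highest libraries were mutant 3 and control 3, as for the summed acinar markers. For Fcrla the estimates were split between 2 transcripts in a way that differed between libraries. NM_145141 had 0.991, 0.61 and 0.683 FPKM in mutants and 0.413, 1.07 and 1.75e-05 FPKM in controls. NM_001160215 had 4.44e-06, 0.00668 and 1.31 FPKM in mutants and 0.813, 0.00802 and 1.58 FPKM in controls. These transcripts are 1658 and 1661 bases long, and the gene had about 20 to 78 reads in a library. The split between them is therefore uncertain, and a switch between animals was not tested.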
